A study of Mus musculus with 6 samples.

Results

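The transcripts of the MHC class I and class II antigen presentation genes were followed in an RNA immunoprecipitation (RIP) of FLAG-tagged LIN28B from cultured mouse B cell progenitors. The members are 10 of the 54752 genes of the deposited expression values, taken by their symbols. The list of symbols was made with earlier results of these data known. H2-Aa, H2-Ab1 and H2-Eb1 encode class II chains, Cd74 the invariant chain, H2-DMa and H2-DMb1 the peptide exchange factor, and Ciita the class II transactivator. H2-K1 and H2-D1 encode classical class I heavy chains, and B2m encodes beta-2-microglobulin, the light chain they share.

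Bone marrow of adult tet-LIN28B mice and of a co-housed littermate was depleted of adherent cells and kept for 5 days in IL-7 at 20 ng/mL with doxycycline (Dox), which favours the growth of Pro-B cells. The tet-LIN28B mice carried 1 copy of a Dox-inducible, FLAG-tagged human LIN28B cDNA at the Col1a locus (Col1a tetO-LIN28B) together with the Rosa26 rtTA*m2 activator. The control was a Rosa26 rtTA*m2 heterozygote without the cDNA, and its cells received Dox too. The activator is expressed widely, so the transgene was not restricted to B lineage cells of the culture. The labels give Dox as 0.1 mg/mL and the methods of the study as 0.1 µg/mL. Part of each lysate was kept as input and the rest was precipitated with anti-FLAG (IP), giving 6 libraries from 2 tet-LIN28B mice and 1 control mouse. The labels conflict on the fraction: each sample's title and the last line of its description give opposite ones. Column names side with the titles, which were followed, so every direction below rests on them.

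MHC class II molecules present peptides from endosomes to CD4+ T cells, and are made by B cells, dendritic cells and macrophages. The invariant chain guides new class II dimers to endosomes and blocks their groove until H2-DM exchanges its remnant for peptide. Class II genes and Cd74 depend on CIITA, which docks on factors bound to the X and Y boxes of their promoters. Class I molecules sit on nearly all nucleated cells, carry peptides from the cytosol to CD8+ T cells, and need B2m to reach the surface. LIN28 proteins bind RNA through a cold shock domain and zinc knuckles, the latter preferring GGAG-like sequence.

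Of the members, 7 lie on chromosome 17 between positions 33996017 and 35267499 (mm10), which is the mouse MHC. B2m lies at chr2:122147686-122153083 and Ciita at chr16:10480059-10528418. The windows below show the first GGAGA with 10 bases on either side that lies within 1 coding exon, 5′ to 3′ on the gene's strand, since GGAGA is a form of the sequence LIN28 zinc knuckles prefer. Windows are printed for 7 members: H2-DMb1 and Ciita also had one and are left out for brevity, and the Cd74 sequence is not shown. Capitals mark GGAGA, and the mm10 position and strand precede each window.
H2-Aa, chr17:34284478-34284502, minus strand, exon 2 of 5: tcagtctcctGGAGAcattggccag
H2-Ab1, chr17:34264932-34264956, plus strand, exon 2 of 6: acagccagccGGAGAtcctggagcg
H2-Eb1, chr17:34309672-34309696, plus strand, exon 2 of 6: acaacctggaGGAGAacctgcgctt
H2-DMa, chr17:34137195-34137219, plus strand, exon 3 of 6: tagggctctcGGAGAcctatgacga
H2-K1, chr17:33999871-33999895, minus strand, exon 2 of 8: acagcgacgcGGAGAatccgagata
H2-D1, chr17:35263487-35263511, plus strand, exon 2 of 8: acagcgacgcGGAGAatccgagata
B2m, chr2:122150900-122150924, plus strand, exon 2 of 4: gccacccaccGGAGAatgggaagcc

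The windows of H2-K1 and H2-D1 were identical, and these genes could exchange reads. Of the 50-base words of the H2-K1 model, 8.79% also occurred in another gene, and for H2-D1 the share was 14.3%. H2-DMb1 shared 27.2% of its words with H2-DMb2. Values of these 3 genes are therefore uncertain where reads were divided between copies. The other 7 members shared none.

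All 10 members were detected in every library, and their mean inputs ran from 3.31 to 3399 FPKM. FPKM are fragments scaled by transcript length and library size, so they can be set side by side between genes. Over the 3 inputs, B2m was at 3399 ± 527 FPKM, Cd74 at 913 ± 259, H2-D1 at 769.7 ± 67.5 and H2-K1 at 765.1 ± 3.76 (SD, n = 3 mice). The class II chains followed, with H2-Aa at 288 ± 51.4, H2-Ab1 at 242 ± 64.5 and H2-Eb1 at 121 ± 20.3 FPKM. H2-DMa was at 33.3 ± 5.85, H2-DMb1 at 11.7 ± 1.94 and Ciita at 3.31 ± 0.230 FPKM. In this order, Cd74, H2-D1 and H2-K1 overlapped between mice, as did H2-Aa and H2-Ab1, and the remaining neighbours did not overlap.

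**Figure D1:**
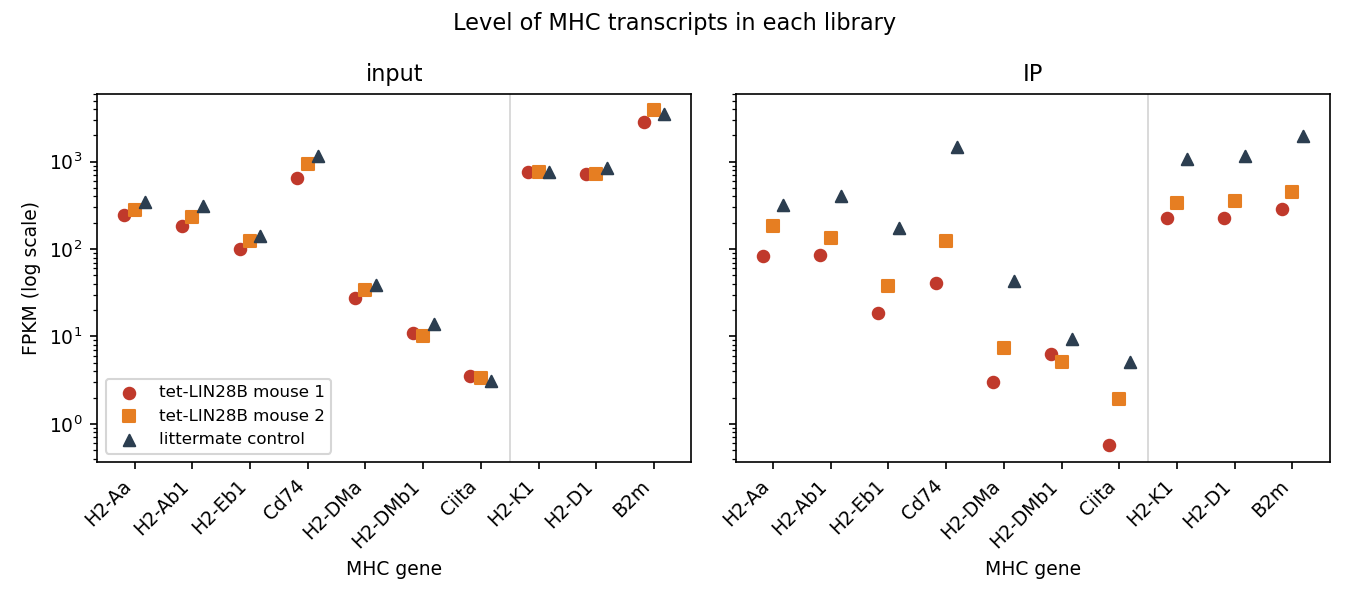
Level of each MHC gene in FPKM (log scale) in the input (left) and the IP (right), with 1 point per mouse. The inputs of the 3 mice differ less than their IP libraries do for every gene, and the IP of the control lies above the IP of both tet-LIN28B mice for all 10 genes.

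The input, which the IP does not touch, asks whether the genotypes differed in the steady level of these mRNAs. No member differed by the test. Cd74 was at 642 and 939 FPKM in the transgenic inputs and at 1159 in the control. H2-Ab1 was at 184 and 230 FPKM in the transgenic inputs and at 312 in the control. Both genes were below the control in both tet-LIN28B mice, by -0.58 ± 0.30 and -0.60 ± 0.20 (log2, SE), with an adjusted p of 0.835 for each in limma. In all, 8 of 10 members had both tet-LIN28B inputs under the control, against 40.5% of the 12576 genes tested, the exceptions being B2m and Ciita. The median of the members was -0.34 and that of all genes tested -0.04 (log2). H2-K1 differed little, with 762 and 765 FPKM in the transgenic inputs and 769 in the control, a log2 difference of -0.011 that turned to 0.033 with TPM. Among all genes tested limma called 0 higher and 0 lower, 680 having an unadjusted p under 0.05 (5.41%) and 0 of these being members. In these bulk cultures, fewer cells of a type and less RNA per cell cannot be told apart.

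The tet-LIN28B IP was then compared with its own input. Of the 10 members, 9 were lower in IP than input and none was higher, while 31% of all genes tested were lower and 13.9% higher. The median log2 IP/input was -1.41 over the members and -0.32 over all genes tested. A ratio under 1 means that a transcript made up less of the IP library than of the input library.

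Cd74, at chr18:60803848-60812652 (mm10), had the lowest mean log2 IP/input of the members, although in mouse 2 the ratio of B2m was lower (0.117 against 0.131). Its level fell from 642 to 40.5 FPKM in mouse 1 and from 939 to 123 FPKM in mouse 2, which is 15.8-fold and 7.61-fold. In the control it was at 1159 FPKM in the input and 1478 FPKM in the IP. The log2 IP/input of the tet-LIN28B mice was -3.44 ± 0.29 (SE, adjusted p = 0.00323, limma), lower than in all but 1.47% of the genes tested.

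The class II chains were nearer to 1 than Cd74, and H2-Eb1, a beta chain, was the lowest of them. H2-Eb1 had 99.1 FPKM in the input and 18.4 in the IP of mouse 1, 124 and 37.8 in mouse 2, and 139.5 and 175 in the control. Its IP/input was 0.186 and 0.306 in tet-LIN28B cells and 1.25 in the control. Both tet-LIN28B ratios were under the control, as for all 10 members and for 60% of the genes tested. The log2 IP/input was -2.02 ± 0.22 (SE, adjusted p = 0.00501).
H2-Aa, the alpha chain of I-A, had IP/input of 0.339 and 0.663 in tet-LIN28B cells and 0.937 in the control. Its partner H2-Ab1 had 0.470 and 0.587 in tet-LIN28B cells and 1.29 in the control. Both were lower in the tet-LIN28B IP than in its input, at -1.07 ± 0.27 (adjusted p = 0.0339) and -0.92 ± 0.17 (adjusted p = 0.0151, log2 and SE, limma). The mice of H2-Aa were the further apart of this pair, and without mouse 1 its value was -0.59. Its call ended with a pseudocount of 0.1 (adjusted p = 0.0541, limma) and after centring (adjusted p = 0.0582).

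The subunits of the peptide exchange factor differed from each other. H2-DMa had 27.2 and 33.8 FPKM in the transgenic inputs and 3.04 and 7.45 in the IP, while the control had 38.9 and 43.5. Its ratios were 0.112, 0.220 and 1.12, and the log2 IP/input of tet-LIN28B was -2.42 ± 0.24 (SE, adjusted p = 0.00441, limma). H2-DMb1 had ratios of 0.575 and 0.50 in tet-LIN28B cells, with 0.678 in the control, so its control was also under 1. Its log2 IP/input was -0.79 ± 0.18 (SE, adjusted p = 0.0271, limma), and the call ended after centring (adjusted p = 0.0803).
Ciita, the least abundant member, was the one that did not pass. It had 3.53 and 3.32 FPKM in the transgenic inputs and 0.57 and 1.92 in the IP, against 3.07 and 5.12 in the control. The log2 IP/input was -1.05 ± 0.31 (SE, adjusted p = 0.0518, limma), computed after adding 1 FPKM, which shrinks the ratios of a gene at this level. With 5 FPKM added it passed, at -0.44 (adjusted p = 0.0441).

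The class I heavy chains had ratios close to each other. H2-K1 had IP/input of 0.299 and 0.445 in tet-LIN28B cells and 1.40 in the control. H2-D1 had 0.314 and 0.481 in tet-LIN28B cells and 1.37 in the control. The log2 IP/input was -1.45 ± 0.20 (adjusted p = 0.00816) for H2-K1 and -1.36 ± 0.21 (adjusted p = 0.0100) for H2-D1 (SE, limma). With the FPKM of 17 class I heavy chain genes of the H2 locus summed before the ratio, so that reads divided among them stay together, the value was -1.18 (adjusted p = 0.0124).
B2m was the most abundant member, and its tet-LIN28B mice lay close together. It had 2832 and 3873 FPKM in their inputs and 287 and 451 in their IP, against 3491 and 1979 in the control. Its ratios were 0.101 and 0.117 in tet-LIN28B cells and 0.567 in the control, so the control IP also held less of it than its input. The log2 IP/input of tet-LIN28B was -3.20 ± 0.17 (SE, adjusted p = 0.00242, limma), near that of Cd74.

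**Figure D2:**
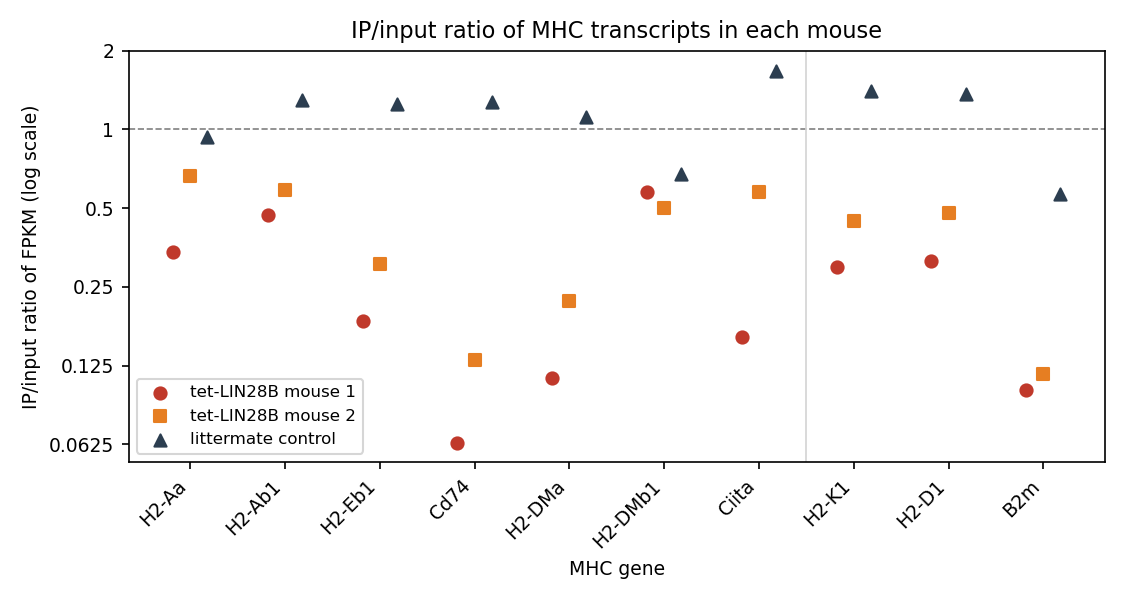
IP/input ratio of FPKM (log scale) for each MHC gene, with 1 point per mouse and a dashed line at 1. Both tet-LIN28B mice lie under 1 and under the control for all 10 genes. Of the 10 control ratios 7 lie above 1, as did those of most genes tested.

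Without FLAG-tagged protein, the control IP gives the background of the precipitation, here in 1 mouse. Its log2 IP/input had a median of 0.34 over the members and 0.04 over all genes tested. A ratio above 1 was found for 7 of 10 members, and, that median being above 0, for most genes tested too. Among all genes tested in the control, the members ran from percentile 5.43 (B2m) to 85.3 (Ciita). H2-Aa, H2-DMb1 and B2m were under 1, though H2-Aa turned to 0.18 (log2) with TPM. The median of all genes tested was itself -0.38 and -0.23 in the tet-LIN28B mice; the members' values stand against these. After scaling to TPM, the medians of all genes were -0.31, -0.10 and 0.27 in mouse 1, mouse 2 and the control.

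The difference between tet-LIN28B and control in IP/input was tested in the same fit, so it shares the tet-LIN28B libraries with the comparison above. In all 10 members both tet-LIN28B ratios were under the control ratio, as they were in 60% of the genes tested, though H2-DMb1 turned to 0.062 (log2) once each mouse was centred on its median. Cd74 and B2m passed the test, both lower, while 2.53% of the genes tested were lower and 0.382% higher. Cd74 differed by -3.79 ± 0.50 (log2, SE, adjusted p = 0.0474, limma), and B2m by -2.38 ± 0.29 (adjusted p = 0.0457). H2-DMa and H2-Eb1 were at -2.58 ± 0.42 and -2.35 ± 0.39 and just missed the threshold, with an adjusted p of 0.0532 for each. H2-K1 was at -1.94 ± 0.35 (adjusted p = 0.0606), H2-D1 at -1.82 ± 0.37 (0.0670) and H2-Ab1 at -1.29 ± 0.29 (0.0784). Ciita was at -1.64 ± 0.54 (adjusted p = 0.136), H2-Aa at -0.98 ± 0.47 (0.245) and H2-DMb1 at -0.28 ± 0.32 (0.591). The median over the members was -1.88, against -0.39 over all genes tested.

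How many members passed depended on the settings of the fit. A filter of 50 FPKM or more in the mean input, chosen after seeing the data, left 2244 genes. Of these, 30.6% were lower against the control, as were 7 of 7 members tested. Their adjusted p lay between 1.49e-11 for Cd74 and 0.0209 for H2-Aa (limma). Their log2 values were those given above. The filter changed only the genes over which limma pooled the variance and adjusted p, so these p-values rest on the same mice. With the study's filter, which asks for 50 FPKM in all libraries of the transgenic mice, 5 of 5 were lower, against 22.2% of 1460 genes (23.2% were higher). In the IP against its input, 5 of 5 were lower with that filter (35.1% of genes lower, 35.8% higher), as were 7 of 7 at 50 FPKM of input (49.6% of genes lower). In that comparison 0 members passed without a filter, 7 after centring or without the mouse as a block, and 8 with a pseudocount of 0.1. Against the control, no member passed with a pseudocount of 0.1, without a filter, without the variance trend or without the mouse as a block. There are 1 control mouse and 1 residual degree of freedom per gene, and the lone control is taken to have the spread of the transgenic pair.

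**Figure D3:**
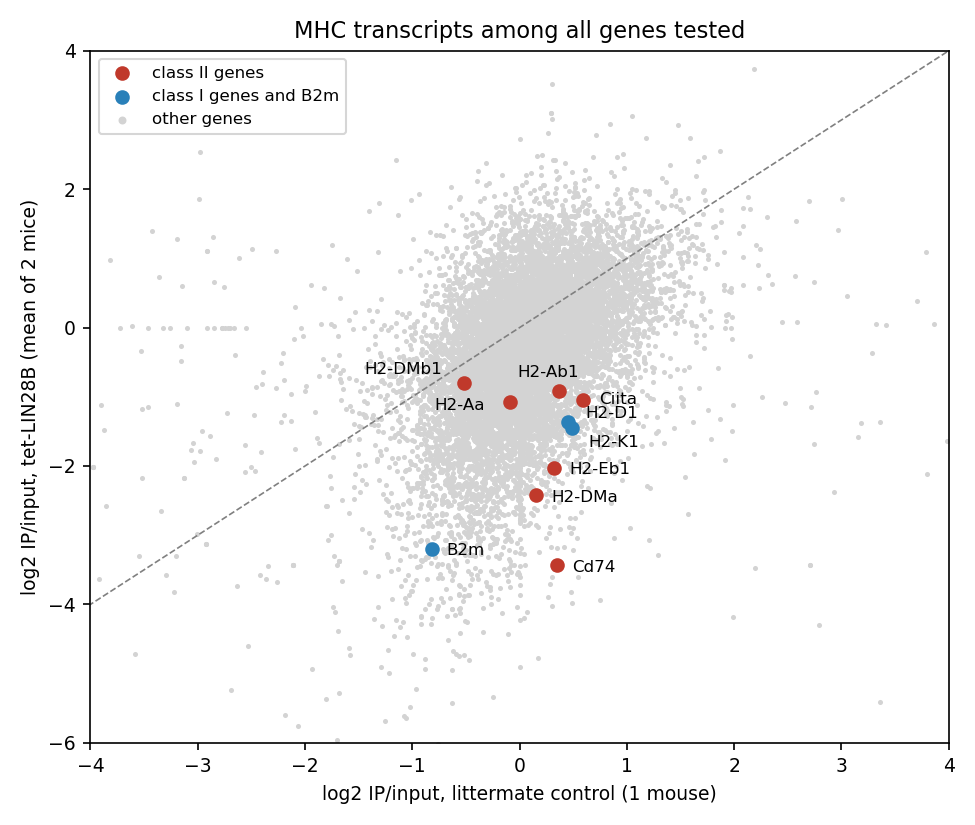
Log2 IP/input of each gene tested in the control (x axis) and in tet-LIN28B (y axis, mean of 2 mice), with the line of equality dashed, class II members in red, class I members and B2m in blue, and 63 genes outside the axes. All 10 members lie under the line, Cd74 furthest at -3.79 and H2-DMb1 nearest at -0.28, which turned to 0.062 after centring each mouse on its median.

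The members were compared with the other genes of antigen presentation, in lists chosen with earlier results of these data known. Counts of genes lower and higher in these lists and in the marker lists stand beside the 31% and 13.9% of all genes tested. Among the other class II genes, 2 of 4 tested were lower in the tet-LIN28B IP than in its input and 0 were higher. H2-Oa, a chain of the H2-DM inhibitor, had 21.7 and 29.8 FPKM as transgenic input levels, with ratios of 0.0785 and 0.129 and of 1.03 in the control. Its log2 difference from the control was -2.91 ± 0.34 (adjusted p = 0.0447, limma). H2-DMb2, the copy of H2-DMb1, had 0.395 and 0.485 against 1.02. H2-Ob, the partner of H2-Oa, had 0.608 and 0.878 against 0.956 and did not pass, nor did H2-Eb2 with 0.828 and 1.04 against 1.24.

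Of 11 other class I heavy chain genes tested, 1 was lower and 1 higher in the tet-LIN28B IP than in its input. The lower one was H2-Q7, with ratios of 0.0978 and 0.212 in tet-LIN28B and 0.929 in the control, and the higher one H2-Q4, with 1.69 and 2.02 against 1.38. These genes too can share reads. H2-Q6 had 0.534 and 0.800, and H2-T22 had 1.27 and 1.73, and neither passed.

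Of 13 genes that supply and load class I peptides, 6 were higher in the tet-LIN28B IP than in its input and 1 was lower. Canx, the ER chaperone calnexin, had ratios of 2.54 and 2.46 in tet-LIN28B and 1.43 in the control (log2 IP/input 1.31 ± 0.15, adjusted p = 0.00563, limma). Psmb9, an immunoproteasome subunit, had 2.17 and 2.29 against 0.978 (1.15 ± 0.15, adjusted p = 0.00730). The one lower gene was Calr, the chaperone calreticulin, with 0.670 and 0.635 against 1.12. Psme1, of the proteasome activator, had 0.505 and 0.799 against 0.701 and did not pass. None of the 13 passed against the control.

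Of 9 endosomal processing genes tested, 4 were lower and 2 higher. Ifi30, a thiol reductase of endosomes, had 0.168 and 0.352 in tet-LIN28B and 0.868 in the control, and the protease Ctsb had 0.237 and 0.349 against 1.17. Lgmn, the protease legumain, had 2.91 and 3.68 against 1.97, and the tetraspanin Cd9 had 1.94 and 1.47 against 0.949. Of 14 transcription factors of MHC genes, 5 were lower and 2 higher. Spi1 (PU.1) had 0.171 and 0.248 against 0.750, and Nfyc, a subunit of the CCAAT-binding factor NF-Y, had 0.218 and 0.247 against 0.798. Another NF-Y subunit, Nfyb, had 2.24 and 1.91 against 1.10, and Creb1 had 2.39 and 2.01 against 1.99. No gene of these lists passed against the control, and NF-Y subunits had ratios on both sides of 1.

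**Figure D4:**
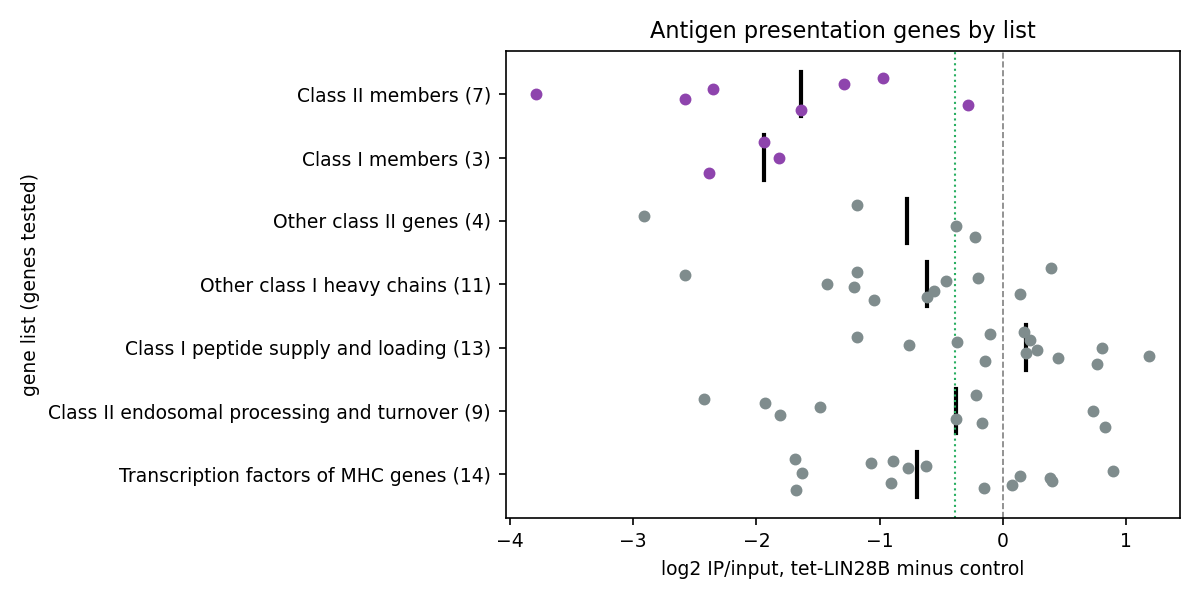
Log2 IP/input of tet-LIN28B minus control for each gene tested, by list, with a black bar at the median of each list, a dashed line at 0 and a dotted green line at the median of all genes tested (-0.39). The class II and class I members have medians of -1.64 and -1.94, and the genes for class I peptide supply and loading a median of 0.19.

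The CCAAT motif, searched as CCAAT and ATTGG, and the motif TGACG, searched with CGTCA, are letters found in the Y box and in the second part of the X box of MHC promoters, which is why promoters are shown. RefSeq sequences (GRCm38.p6) were at hand for 7 of the members, all but H2-Ab1, Cd74 and Ciita. The 150 bases before the start are given for the 4 whose window does not reach into the GENCODE M21 gene by more than 1 base, with capitals at CCAAT or TGACG on either strand and at a stretch described next.
H2-Aa, chr17:34287824-34287973, minus strand: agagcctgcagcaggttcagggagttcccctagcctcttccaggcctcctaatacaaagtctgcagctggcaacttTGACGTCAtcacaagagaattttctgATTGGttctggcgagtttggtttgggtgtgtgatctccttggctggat
H2-Eb1, chr17:34305717-34305866, plus strand: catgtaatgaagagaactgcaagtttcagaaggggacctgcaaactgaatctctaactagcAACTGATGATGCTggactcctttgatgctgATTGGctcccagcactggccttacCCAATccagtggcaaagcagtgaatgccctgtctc
H2-K1, chr17:34000348-34000497, minus strand: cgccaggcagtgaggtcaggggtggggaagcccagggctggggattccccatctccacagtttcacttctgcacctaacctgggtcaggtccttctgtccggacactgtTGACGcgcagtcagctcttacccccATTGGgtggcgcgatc
B2m, chr2:122147537-122147686, plus strand: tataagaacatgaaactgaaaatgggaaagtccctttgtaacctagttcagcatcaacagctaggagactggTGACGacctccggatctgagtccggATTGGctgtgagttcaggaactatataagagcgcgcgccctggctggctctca
Of the 7 windows, those of H2-Aa, H2-Eb1, H2-DMb1, H2-K1, H2-D1 and B2m held CCAAT and those of H2-Aa, H2-K1, H2-D1 and B2m held TGACG, while that of H2-DMa held neither. The windows of H2-DMa and H2-D1 lie inside their GENCODE M21 genes, so whether they are promoter sequence depends on the annotation. In H2-Aa the 2 strands of TGACG overlap in TGACGTCA. CCAAT occurred on 1 strand or the other in the 250 bases before the start of 34.5% of 27025 genes, and TGACG in 17.9%. The stretch AACTGATGATGCT, noticed after the sequences were seen, is the longest that the H2-Eb1 and H2-DMb1 windows share, and it occurred in 2 of the 27025, these being H2-Eb1 and H2-DMb1. In H2-DMb1 it lies inside the GENCODE M21 gene, so whether it is promoter sequence there depends on the annotation.

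The transcript models of the members were short for this data set. Of the 10, 9 were shorter than the median of 2789 bases over the 10297 genes tested that had a protein-coding model, B2m being the shortest at 860 bases. Across these genes, which are not independent replicates, the Spearman correlation with log2 IP/input in tet-LIN28B was 0.35 for length and -0.23 for GC content. Against the control it was 0.16 for length and -0.33 for GC content. GGAGA per kilobase gave 0.04 for either comparison. The part of length or GC content in the members' values was not tested.
GGAGA density varied among the members. H2-Eb1 had 8 copies, or 6.83 per kilobase (percentile 99.2), and H2-Ab1 had 6, or 4.95 (percentile 96.8), while the median gene had 1.97. Cd74 and B2m had 1.42 and 1.16 per kilobase, both under the median. At least 1 copy occurred in 96.3% of the genes.

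The culture was checked against markers of the cells it could hold. The B cell progenitor markers summed to 6985, 8220 and 8167 FPKM in the inputs of mouse 1, mouse 2 and the control. They were led by Vpreb1 at 3112, 3364 and 3012 FPKM and Igll1 at 1396, 1749 and 1634 FPKM. Rag1 was the lowest of them, at 11.7, 11.2 and 9.86 FPKM. Of these 11 markers, 4 were lower and 2 higher in the tet-LIN28B IP than in its input, and 1, Cd79b, was lower against the control. The 7 mature B cell markers summed to 230, 260 and 278 FPKM in the inputs, led by Ms4a1 and Ighd, and 5 were lower in the IP.

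Markers of other cell types were read in the same inputs, where bulk values do not show which cells the reads came from. The 10 dendritic cell markers summed to 576, 698 and 665 FPKM, nearly all of it Cst3 with Ccr7 next. The defining markers Itgax, Zbtb46, Xcr1 and Clec9a were each under 1 FPKM in every input. Siglech was at 11.2, 7.58 and 4.92 FPKM, and Cd209a, Flt3 and Batf3 were at most 2.86. The 12 macrophage and monocyte markers, led by Lyz2 and Ly6c2, summed to 784, 532 and 452 FPKM in the same order of mice. C1qa, Adgre1 and Csf1r were each between 1.34 and 3.86 FPKM. Granulocyte markers, led by S100a9 and S100a8, summed to 7424, 4476 and 6396 FPKM, and T and NK cell markers, led by Nkg7 and Cd3d, to 93.2, 30.8 and 34.9 FPKM.
In the tet-LIN28B IP, 3 of 6 dendritic, 9 of 10 macrophage and monocyte, 6 of 7 granulocyte and 3 of 5 T and NK cell markers tested were lower than in input, and 1 T cell marker, Cd3d, was higher. Against the control, Ccr7 and Nkg7 were lower. The part of these cells in the members' values was not tested.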

How the data were processed

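RIP-seq libraries (poly-A RNA, SMART-Seq v4) were made of input and IP from 2 tet-LIN28B mice and 1 control mouse. Per the labels and methods, the authors used STAR 2.7.1 for alignment to mm10, and RSEM 1.28 gave the deposited FPKM values. No source used here gives the annotation release. FPKM hold no counts, so depth per library is unknown and counting error cannot be given. FPKM summed to between 1144868 and 1384941 per library, inputs correlated at 0.956 to 0.965 (log2), and none of 15 library pairs was identical.

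With R 4.3.3 and limma 3.58.1, log2((IP + 1)/(input + 1)) was fitted per mouse with genotype as the factor and a variance trend, over the 12576 genes whose inputs averaged 1 FPKM or more. That filter does not look at the IP, unlike the 50 FPKM filter of the study. The threshold was a Benjamini-Hochberg adjusted p of 0.05, two-sided. Fold changes are on the log2(FPKM + 1) scale and understate those of low genes; plain IP/input ratios have no pseudocount. Inputs were compared on log2(FPKM + 1). The ratio makes each mouse its own block, since input and IP of a number come from 1 mouse (the differences between both tet-LIN28B mice in input and in IP correlated at 0.132 over genes). The fit was also run on simulated data, with independent noise of the same spread in every library. That run cannot test the spread of the lone control. Alternatives were other filters, pseudocounts, TPM, centring, no trend, no block and leaving out a tet-LIN28B mouse.

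The members and lists were chosen with earlier results of these data known. Named besides the members were the 2 highest and 2 lowest of each pathway list by log2 IP/input in tet-LIN28B, the 2 most abundant markers per list and the 5 genes most like the class II profile. Cd79b and Rag1 were named outside that rule, after their values were seen, where a count or level turned on them. So were the dendritic markers other than Cst3 and Ccr7, and the macrophage and monocyte markers other than Lyz2 and Ly6c2. Gene models are GENCODE M21, read with Python 3.11.15.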

Additional observations from a re-analysis of the deposited data

Results flagged for a closer look

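The IP/input of the tet-LIN28B mice differed from that of the control, by the test of that difference in limma, for 318 genes that were lower and 48 that were higher. Among the members these were Cd74, at -3.79 (log2, lower in 2 of 2 tet-LIN28B mice), and B2m, at -2.38 (lower in 2 of 2). Cd74 and B2m had IP/input of 1.276 and 0.567 in the control.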

How the results depend on the processing

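With a single control mouse, no alternative tests its spread. Each member kept its direction in the tet-LIN28B IP/input under every alternative in which it was tested; Ciita was not under the 10 FPKM filter, Ciita, H2-DMa and H2-DMb1 not under 50 FPKM of input, and those 3, Cd74 and H2-Eb1 not under the study's filter. Against the control, H2-DMb1 turned to 0.062 after centring each mouse on its median, the H2-K1 input turned to 0.033 with TPM, and the B2m input was 0.15 without mouse 1. For IP/input in tet-LIN28B, genes higher and lower were 522 and 512 (5 of 5 members) with the study's filter, 526 and 1112 with inputs of at least 50 FPKM (a filter chosen after seeing the data), and 2908 and 2979 after centring (49.4% higher, against 31% of calls without centring). No filter gave 0 and 0, with 0 members, and 6809 genes at an unadjusted p under 0.05. For tet-LIN28B minus control, genes higher and lower were 300 and 1130 (7 members lower) with inputs of at least 10 FPKM, 339 and 324 (5 members) with the study's filter, 293 and 686 (7 members) at 50 FPKM, 176 and 764 (5 members) with a pseudocount of 5, 78 and 595 (5 members) with TPM, and 68 and 188 (1 member, Cd74) after centring (26.6% higher, against 13.1%). They were 0 and 0, with 0 members, without a filter, with a pseudocount of 0.1, without the trend and with no replicate block, where 6523, 3425, 3645 and 3499 genes had an unadjusted p under 0.05. With no replicate block, H2-Aa (adjusted p = 0.105) and H2-Ab1 (adjusted p = 0.0555) also lost their call in the tet-LIN28B IP/input, by limma. For the inputs, genes higher and lower were 13 and 5 at 10 FPKM, 5 and 3 with the study's filter and 12 and 8 at 50 FPKM, and 5 genes were lower with a pseudocount of 5. No paired analysis was possible for the inputs, with 1 control mouse and no pairing of replicates between the genotypes in the labels. The control IP/input median of the members was 0.61 with TPM. Leaving out a tet-LIN28B mouse left values with no test, between -4.30 and -3.27 for Cd74 and between -2.48 and -2.28 for B2m against the control. The cause of these changes was not tested.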

Other observations

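The 5 genes whose levels over the 6 libraries were most like the mean profile of H2-Aa, H2-Ab1, H2-Eb1 and Cd74 were Abhd17a, Banf1, Rnf26, Mtx1 and Scamp4, with root mean square differences of 0.101 to 0.148 (centred log2 FPKM + 1). H2-Eb1 itself was at 0.0769, and H2-Aa, H2-Ab1 and Cd74 were at 0.454, 0.430 and 0.797. Abhd17a, a depalmitoylating enzyme, had IP/input of 0.173 and 0.342 in tet-LIN28B and 1.21 in the control. Banf1, a chromatin-binding protein of the nuclear envelope, had 0.206 and 0.293 against 1.12.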
